A study of Homo sapiens with 24 samples.

Results

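HEK293T cells grown in rotating capillaries were compared between a rotation speed of 30 rpm and one of 1 rpm. HEK293T is an established human embryonic kidney line that carries the large T antigen; its samples are labelled as kidney and epithelial. The capillary, a dual-axis rotating capillary container (DRCC in the labels), is a vessel turned about a pair of axes in which cells gather into spheroids. The comparison used 6 of the series' 24 RNA sequencing libraries, 3 at each speed, chosen by line, format and speed and by no measured value. The other 18 are HEK293T in flat 2D culture and in AggreWell microwells, and PANC-1, a human pancreatic ductal carcinoma line, in 2D, AggreWell and DRCC at both speeds. No treatment, genotype or culture time is named for any of the 6 libraries, so speed is the labelled difference between the groups. Nothing in the labels says that the 3 libraries of a speed came from separate cultures; p-values then describe how far these libraries vary, and that variation may be technical.

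Cells in a spheroid receive oxygen, glucose and amino acids by diffusion from the medium. Low oxygen stabilises the HIF transcription factors, which raise glucose transporters, glycolytic enzymes and autophagy genes. Oxidants and electrophiles release NRF2 from its inhibitor KEAP1, and NRF2 then raises enzymes that make glutathione and reduced thioredoxin. Amino acid shortage and unfolded protein raise the factor ATF4 and the chaperones of the endoplasmic reticulum. Contact with neighbours and matrix acts through integrins, Notch receptors and the actin cytoskeleton.

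The 1 rpm libraries held 35020379 to 35675959 fragments and the 30 rpm libraries 32021638 to 32557265, so the groups did not overlap in depth. Genes at 1 FPKM (fragments normalised to transcript length and library total) or more numbered 12193.7 ± 36.8 at 1 rpm and 11967.3 ± 19.5 at 30 rpm (SD, n = 3 each). With 3 libraries against 3, an exact two-sided permutation test cannot go below p = 0.1, the value that depth and gene number both gave. A fit of recovered fragments that models each library's depth (voom) called 2566 genes higher and 4019 lower at 30 rpm, and other effects of depth were not tested. Pearson correlations of log2(FPKM + 1) were 0.9968 to 0.998 within 1 rpm, 0.9976 to 0.9979 within 30 rpm and 0.9886 to 0.9892 between speeds. The 9 HEK293T markers used all reached 1 FPKM in at least 3 libraries, and their summed level was 215 to 221 FPKM at 1 rpm and 192 to 199 at 30 rpm. Most of that sum was CRABP2, which does not separate the lines, at 86.1 and 138 FPKM in PANC-1 at 1 and 30 rpm. PAX2 was higher in PANC-1, at 7.50 and 8.01 FPKM, and the other markers were lower there. Of the 10 PANC-1 markers, S100A6 was at 0 in all 6 libraries, and KRT7 and CD44 were at or near 0; their sum was 23.6 to 23.9 FPKM at 1 rpm and 34.9 to 38.4 at 30 rpm, most of it ANXA1. Of 4 blood markers PTPRC and CD3E were at 0 in all 6 libraries, and the sum was 2.45 to 2.92 FPKM at 1 rpm and 2.78 to 3.87 at 30 rpm, nearly all of it CD68. Of 5 fibroblast markers COL1A2 was at 0, and the sum was 0.436 to 0.472 and 0.273 to 0.449 FPKM, most of it PDGFRA. Of 5 endothelial markers TIE1 was at 0, and the sum was 0.24 to 0.341 and 0.195 to 0.357 FPKM, most of it KDR.

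Rotation at 30 rpm went with small changes in a large share of the genes. A gene was tested where it reached 1 FPKM in at least 3 of the 6 libraries, which 12184 of 26450 did. It was called at an adjusted p under 0.05 in limma's moderated test on log2(FPKM + 1), with Benjamini-Hochberg adjustment over all genes tested. Of these genes 6375 (52.3%) were called, 2441 higher (20.0%) and 3934 lower (32.3%) at 30 rpm. The median absolute change was 0.14 on the log2(FPKM + 1) scale, on which all changes below are given and which understates those of low genes. A change of at least 1.5-fold was called for 276 genes. Calls of at least 2-fold numbered 3 higher (0.0246%) and 13 lower (0.107%). The libraries of the speeds did not overlap for 7369 genes (60.5%), with 30 rpm above in 2830 (23.2%) and below in 4539 (37.3%). The largest changes named below were picked partly for lack of overlap, so for them it is no further support. Counts of list members called in HEK293T below stand against the 20.0% higher and 32.3% lower of all genes.

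The excess of lower calls moved with the scaling. Scaled by median ratios, 3087 genes were higher and 3165 lower; quantile normalization gave 3160 and 3037. The median over all genes was -0.04 as deposited, 0.00 after median-ratio scaling and 0.01 after quantile normalization. The number past 2-fold moved with the settings as well, and the cause was not tested. A pseudocount of 0.1 gave 11 higher and 85 lower, and voom on recovered fragments gave 18 and 106. Just inside the filter lay BVES-AS1 and SAMD14, whose third-highest values were 1.00077 and 1.00083 FPKM. Just outside it lay RELA-DT and LOC101929898, at 0.999969 and 0.999967 FPKM.

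**Figure D1:**
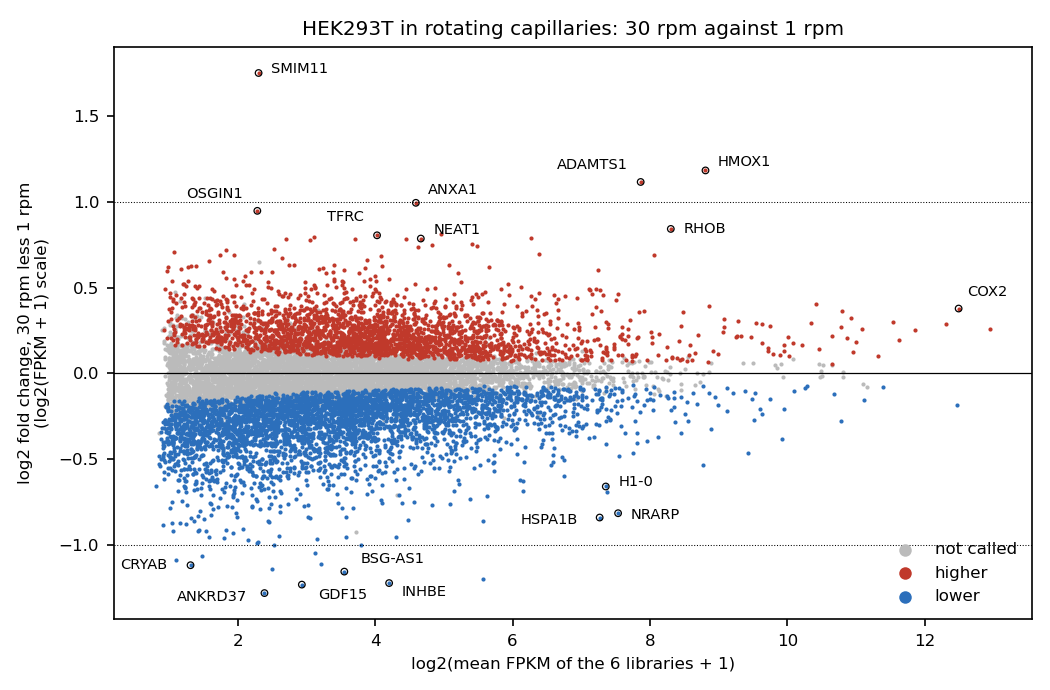
Log2 fold change of 30 rpm over 1 rpm (y axis) against log2(mean FPKM + 1) over the 6 libraries (x axis), with a point for each gene tested; red points were called higher, blue lower and grey neither, and dotted lines mark 2-fold. Most called genes lie well within the dotted lines, and HMOX1 (1.18) and ADAMTS1 (1.12) stand above 1 at high expression.

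Among the 3 rises past 2-fold was HMOX1, heme oxygenase, which breaks heme down into biliverdin, carbon monoxide and iron. HMOX1 stood at 274, 271 and 274 FPKM in the 1 rpm libraries and at 624, 620 and 620 in the 30 rpm libraries. Every 30 rpm library lay above every 1 rpm library, with a spread within a speed of about 2 FPKM (SD 2.18 and 1.97). The change was 1.18 ± 0.02 (SE; adjusted p = 7.90e-09, limma), a ratio of 2.27. HMOX1 was at 55.9 FPKM in HEK293T 2D cultures and at 36.0 in AggreWell, below both rotating groups.

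Other NRF2 targets rose with HMOX1, while many members did not. OSGIN1, an oxidative stress-induced growth inhibitor, was at 2.36, 2.45 and 2.14 FPKM at 1 rpm and at 4.80, 5.78 and 5.63 at 30 rpm, a change of 0.95 ± 0.07 (adjusted p = 1.48e-05, limma). TXNRD1, thioredoxin reductase, was at 64.3, 62.7 and 60.5 FPKM and at 102, 99.7 and 103, a change of 0.69 ± 0.03. GCLM, the modifier subunit of the enzyme that starts glutathione synthesis, was at 7.46, 8.02 and 7.25 FPKM and at 11.5, 11.4 and 11.4, a change of 0.54 ± 0.04. In each of these genes the speeds did not overlap. In the NRF2 list 9 of 21 tested members rose and 3 fell, beside 20.0% and 32.3% of all genes, and the list's median was 0.04 (0.08 and 0.06 after median-ratio scaling and quantile normalization). Other risers included PRDX1 (0.24), FTL (0.22), TALDO1 (0.21) and FTH1 (0.17), and the fallers were ME1 (-0.26), TXN (-0.24) and KEAP1 (-0.14). NQO1 (-0.08), the catalytic subunit GCLC (-0.08), the cystine carrier SLC7A11 (-0.03) and SRXN1 (-0.03) were not called.

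The promoters of TXNRD1 and GCLM are shown because these NRF2 targets rose and hold the core letters of the antioxidant response element, TGACNNNGC. Sequences are from RefSeq (GRCh38.p14), 250 bases before to 50 after the start of the gene, 5′ to 3′ on the gene's strand, with the matches in capitals. That of GCLM is chr1:93909381-93909680, minus strand, with a match on the opposite strand from -34; that of TXNRD1 is chr12:104215529-104215828, plus strand, with matches from -99 on the gene's strand and from -8 on the other.
GCLM: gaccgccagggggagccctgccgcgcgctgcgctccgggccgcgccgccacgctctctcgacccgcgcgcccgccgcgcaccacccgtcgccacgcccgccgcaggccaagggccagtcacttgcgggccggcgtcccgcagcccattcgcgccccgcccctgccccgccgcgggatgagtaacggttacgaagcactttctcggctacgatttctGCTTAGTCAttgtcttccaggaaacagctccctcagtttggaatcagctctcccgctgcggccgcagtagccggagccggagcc
TXNRD1: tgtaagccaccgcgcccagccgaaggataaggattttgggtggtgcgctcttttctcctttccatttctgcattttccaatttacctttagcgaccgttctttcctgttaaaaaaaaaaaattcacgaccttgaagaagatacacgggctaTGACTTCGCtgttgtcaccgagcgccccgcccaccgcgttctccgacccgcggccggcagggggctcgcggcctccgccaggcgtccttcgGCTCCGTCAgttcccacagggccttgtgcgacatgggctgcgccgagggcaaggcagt
On either strand the letters occurred in 4 of the 15 list members with a promoter in the table (26.7%), in 15.5% of the promoters of genes tested and in 13.6% of all promoters. The other holders were PGD, which was not called (-0.03), and ME1, which was lower; a match of ME1 overlaps the AP-1 letters TGANTCA. These matches describe the sequence and are not evidence of binding.

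Genes of iron handling, a list that includes HMOX1, were mostly higher. TFRC, the transferrin receptor that brings iron into the cell, was at 10.5, 11.2 and 10.8 FPKM at 1 rpm and at 19.4, 19.7 and 20.0 at 30 rpm. The speeds did not overlap, and the change was 0.80 ± 0.04 (adjusted p = 2.28e-06, limma). Rises numbered 6 of 10 (60%) and falls 1 (10%), beside 20.0% and 32.3% of all genes, with a median of 0.18. Besides HMOX1, TFRC and the ferritin chains FTL and FTH1, whose processed pseudogenes make read assignment uncertain, the risers were NCOA4 (0.30), the receptor that delivers ferritin to autophagy, and IREB2 (0.18). The reductase STEAP3 fell by 0.28.

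**Figure D2:**
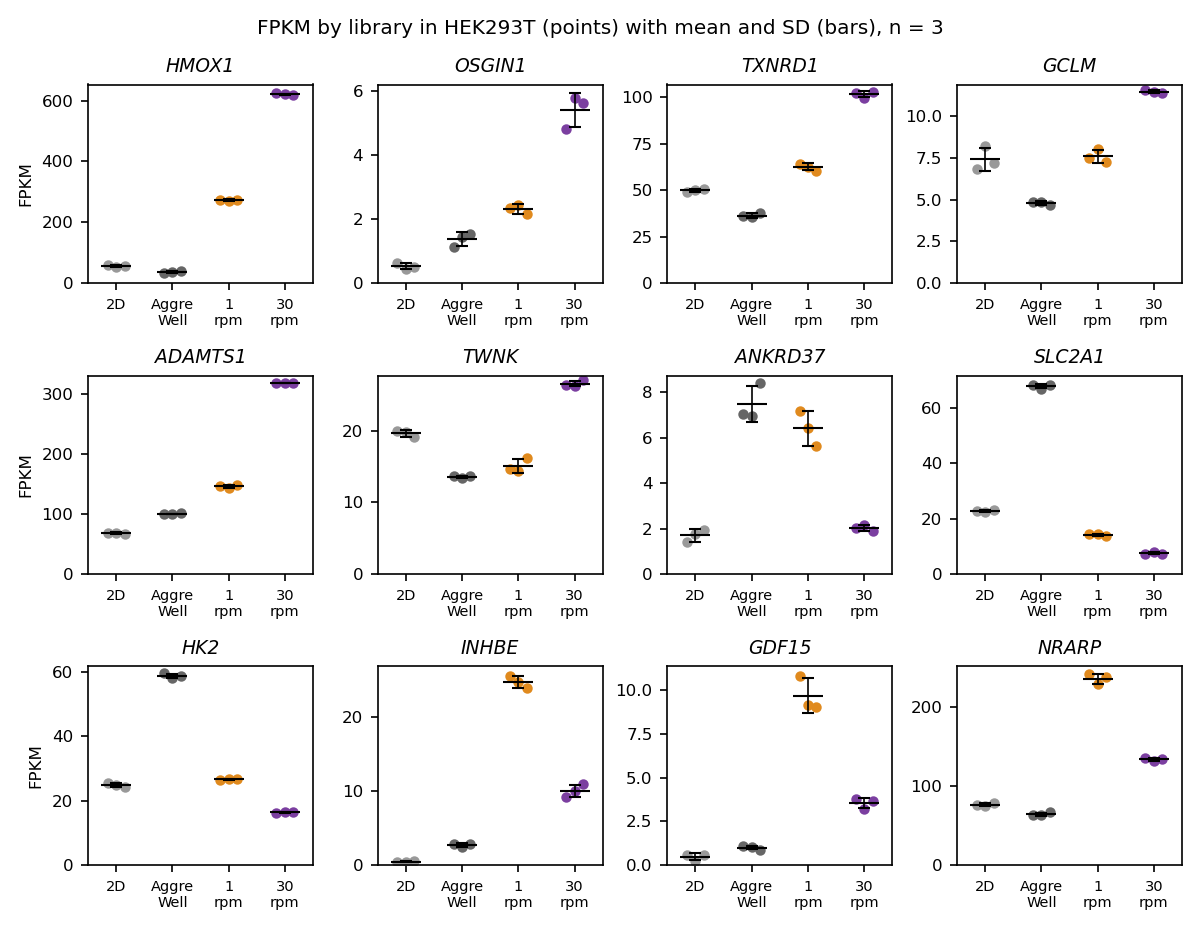
FPKM (y axis, from 0) of 12 genes in each HEK293T library in 2D, AggreWell and DRCC at 1 and 30 rpm (x axis); points are libraries, and bars give the mean and SD of 3. HMOX1, OSGIN1, TXNRD1, GCLM, ADAMTS1 and TWNK are higher at 30 rpm than at 1 rpm, and ANKRD37, SLC2A1, HK2, INHBE, GDF15 and NRARP lower, with no overlap between the speeds.

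Targets of the hypoxia-inducible factors were lower at 30 rpm. ANKRD37, an ankyrin-repeat gene induced by HIF1, was at 7.18, 6.43 and 5.62 FPKM at 1 rpm and at 2.04, 2.17 and 1.91 at 30 rpm. The change was -1.28 ± 0.08 (adjusted p = 6.34e-06, limma), and rested on 209 to 264 fragments per library at 1 rpm and 64 to 74 at 30 rpm. LOX, which crosslinks collagen, was at 4.38, 4.95 and 4.18 FPKM and at 1.64, 1.96 and 2.22, a change of -0.91 ± 0.08. SLC2A1, the glucose transporter GLUT1, was at 14.5, 14.3 and 13.9 FPKM and at 7.25, 7.92 and 7.38, a change of -0.84 ± 0.04. DDIT4, an inhibitor of mTORC1, was at 516, 511 and 525 FPKM and at 366, 349 and 356, a change of -0.53 ± 0.03. All 3 libraries of 30 rpm lay below all 3 of 1 rpm in each.

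Of the 21 hypoxia list members tested 15 fell and 1 rose, beside 32.3% and 20.0% of all genes, and the median was -0.32 (-0.28 and -0.29 under median-ratio scaling and quantile normalization). The fallers included VEGFA (-0.39), the main angiogenic factor, the mitophagy receptor BNIP3 (-0.44), ADM (-0.53), SLC2A3 (-0.42) and the oxygen sensor EGLN1 (-0.32). CITED2, an inhibitor of HIF that HIF also induces, was the member that rose (0.19). The 5 not called were NDRG1, EGLN3, KDM3A, MXI1 and INSIG2, with changes from -0.07 to 0.07. The mean level of SLC2A1 was 22.7 FPKM in 2D and 67.8 in AggreWell, both above the rotating groups. That of ANKRD37 was 1.70 in 2D and 7.47 in AggreWell, so 1 rpm lay nearer AggreWell and 30 rpm nearer 2D. In bulk RNA, fewer cells with a transcript and less of it per cell cannot be told apart.

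The promoters of ANKRD37, DDIT4 and LOX, which fell, are printed with the letters TACGTG, a form of the hypoxia response element core, in capitals. They lie at chr4:185396591-185396890, plus strand; chr10:72273674-72273973, plus strand; and chr5:122078210-122078509, minus strand, with matches on the gene's strand from -144, -126 and -99.
ANKRD37: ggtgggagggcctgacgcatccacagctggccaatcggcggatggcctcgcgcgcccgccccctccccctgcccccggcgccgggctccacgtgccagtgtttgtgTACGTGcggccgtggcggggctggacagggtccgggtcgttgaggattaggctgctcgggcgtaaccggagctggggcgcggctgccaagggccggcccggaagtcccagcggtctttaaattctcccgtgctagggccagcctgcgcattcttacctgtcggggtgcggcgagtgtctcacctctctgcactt
DDIT4: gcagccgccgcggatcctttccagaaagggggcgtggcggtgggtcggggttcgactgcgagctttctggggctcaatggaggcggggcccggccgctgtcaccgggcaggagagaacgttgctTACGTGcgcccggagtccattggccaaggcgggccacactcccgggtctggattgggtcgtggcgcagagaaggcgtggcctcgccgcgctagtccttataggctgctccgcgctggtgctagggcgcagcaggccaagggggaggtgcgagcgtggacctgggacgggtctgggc
LOX: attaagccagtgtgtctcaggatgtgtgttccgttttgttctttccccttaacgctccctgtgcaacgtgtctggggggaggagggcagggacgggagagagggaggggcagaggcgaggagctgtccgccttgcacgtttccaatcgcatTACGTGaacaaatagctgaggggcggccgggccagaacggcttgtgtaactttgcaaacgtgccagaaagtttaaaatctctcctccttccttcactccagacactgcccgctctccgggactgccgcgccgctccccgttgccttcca
On either strand these letters were in 5 of the 17 list members with a promoter in the table (29.4%), in 3.43% of the promoters of genes tested and in 3.33% of all promoters. P4HA1 (from -86) and EGLN1 (from -14) were the other holders. All 5 fell, but so did 15 of the 21 list members tested and 32.3% of all genes. As with the antioxidant letters, the matches describe the sequence and are not evidence of binding. None of the 5 matches overlapped another motif searched; the SLC2A1 window holds no such letters.

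Most glycolytic enzymes and nutrient carriers were lower too. HK2, a hexokinase, the first enzyme of glycolysis, was at 26.5, 26.7 and 26.6 FPKM at 1 rpm and at 16.3, 16.3 and 16.4 at 30 rpm. The libraries of a speed lay close together, the speeds did not overlap, and the change was -0.67 ± 0.03 (adjusted p = 2.28e-06, limma). Of 17 glycolytic genes tested 12 fell (70.6%) and 1, LDHB (0.07), rose (5.9%), with a median of -0.15. The shares of all genes were 32.3% and 20.0%. LDHA, which makes lactate, fell from 314 to 242 FPKM, and ENO1 from 526 to 421 FPKM. Among 19 nutrient carriers 12 fell (63.2%) and 2, SLC20A1 and SLC6A6, rose (10.5%), with a median of -0.18. The neutral amino acid carriers SLC1A4 (-0.59) and SLC7A8 (-0.57) followed SLC2A1 in size. Fatty acid synthesis showed 10 members of 13 lower and 1 higher, with a median of -0.26. Among the lower were the desaturase FADS1 (-0.43), fatty acid synthase FASN (-0.35) and the regulator SREBF1 (-0.28), and ACLY was the member that rose (0.11). Of 23 genes of cholesterol synthesis and uptake 7 fell (30.4%) and 2 rose (8.7%), and after median-ratio scaling 5 fell and 4 rose; INSIG1, which holds the SREBP precursors back, fell by 0.51.

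Transcripts of the mitochondrial genome took a larger share of the libraries at 30 rpm. They made up 3.56%, 3.38% and 3.46% of fragments at 1 rpm and 4.16%, 4.33% and 4.20% at 30 rpm. The groups did not overlap (exact two-sided permutation p = 0.1, the smallest that 3 against 3 allows). The share was 4.77 ± 0.08% in 2D and 3.51 ± 0.07% in AggreWell (SD, n = 3 each). Of the 13 protein-coding genes 11 were called higher and none lower, with a median of 0.28. Under quantile normalization 8 were, with a median of 0.12, and that method sets ND4L, COX1 and COX3 to 0. COX2, a subunit of cytochrome oxidase, rose from 5020 to 6521 FPKM (0.38), ND1 of complex I from 1173 to 1554 FPKM (0.41), and ND6 from 83.7 to 112 FPKM (0.41). ND3 (0.08) and ATP8 (0.06) were not called. Nuclear copies of mitochondrial sequence can share such reads, and ND6 lies on the strand opposite the others, so its reads and those of overlapping transcripts cannot be told apart without strand.

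Nuclear genes that copy and transcribe mitochondrial DNA were more often higher than lower. TWNK, the helicase of the mitochondrial replication fork, was at 14.7, 14.4 and 16.2 FPKM at 1 rpm and at 26.5, 26.3 and 27.1 at 30 rpm. The speeds did not overlap, with a change of 0.78 ± 0.05 (adjusted p = 6.07e-06, limma). TFB2M, which melts the promoter for the mitochondrial RNA polymerase, was at 10.6, 10.5 and 9.94 FPKM and at 17.3, 16.5 and 15.3, a change of 0.62 ± 0.05. Of 16 genes of mitochondrial gene expression and import 9 rose and 1, NRF1 (-0.16), fell, with a median of 0.13. Respiratory chain subunits encoded in the nucleus were mixed: of 36 tested 6 rose and 14 fell, 8 and 8 after median-ratio scaling, and 8 and 12 after quantile normalization. Mitochondrial ribosomal proteins were mixed too, with 17 of 77 higher (22.1%) and 21 lower (27.3%), near the 20.0% and 32.3% of all genes; the other scalings gave 24 and 15, and 19 and 18.

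**Figure D3:**
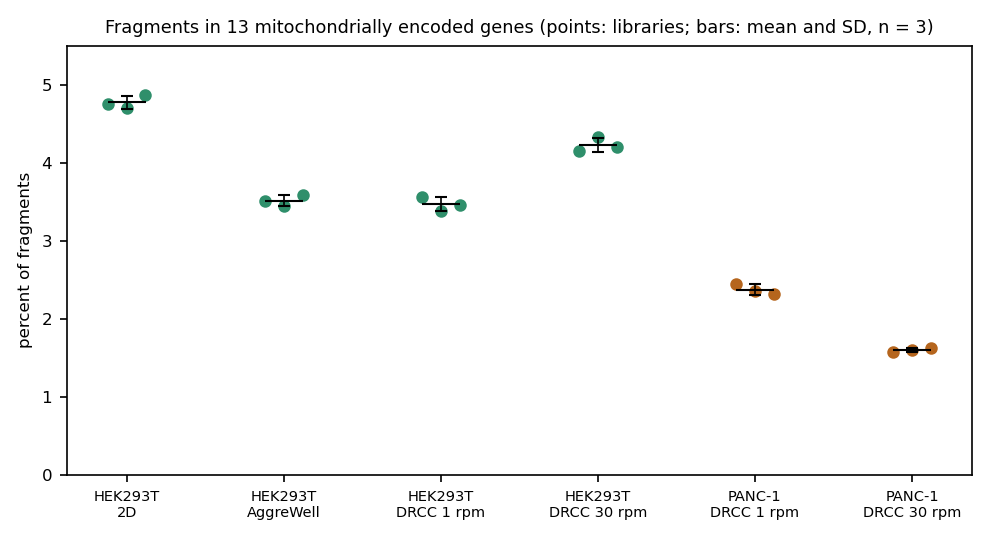
Percent of fragments in the 13 mitochondrially encoded genes (y axis, from 0) in each library of 6 groups (x axis); points are libraries, and bars give the mean and SD of 3. The HEK293T libraries lie at 3.38% to 3.56% at 1 rpm and 4.16% to 4.33% at 30 rpm, and the PANC-1 means go from 2.37% to 1.60%.

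Stress factors under ATF4 split. ATF4 itself, at 117, 112 and 115 FPKM at 1 rpm, was at 162, 161 and 160 at 30 rpm, and ATF3 went from 129, 125 and 128 FPKM to 184, 175 and 179. Both rose by 0.49 with no overlap, and the serine hydroxymethyltransferase SHMT2 rose by 0.44. GDF15, a stress-induced cytokine, was at 10.8, 9.17 and 9.06 FPKM at 1 rpm and at 3.78, 3.197 and 3.66 at 30 rpm, a change of -1.23 ± 0.07 (adjusted p = 6.34e-06, limma). The pseudokinase TRIB3 fell by 0.46 from 18.29 to 13.001 FPKM. Of 26 members tested 7 rose and 14 fell, with a median of -0.11 (-0.07 and -0.08 under the other scalings). In the unfolded protein response list 3 of 22 rose (13.6%) and 9 fell (40.9%), not far from the 20.0% and 32.3% of all genes. The median was -0.07 (-0.03 and -0.05 under the other scalings). HSPA5, the main chaperone of the endoplasmic reticulum, rose by 0.09 and the sensor ATF6 fell by 0.33.

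Heat shock chaperones included some of the largest falls. CRYAB, a small heat shock protein, was at 2.09, 2.47 and 2.61 FPKM at 1 rpm and at 0.529, 0.526 and 0.625 at 30 rpm, from 103 to 130 and 24 to 28 fragments. HSPA1B, an inducible HSP70 gene, was at 201, 192 and 197 FPKM and at 112, 106 and 110. Neither gene overlapped between the speeds, with changes of -1.12 ± 0.07 and -0.84 ± 0.03. HSPA1A fell by 1.11; HSPA1A and HSPA1B are near-identical copies, so how reads divide between them is uncertain. Of the 20 chaperones tested 10 fell (50%, beside 32.3% of all genes), with a median of -0.16. Rises numbered 4 (20%, the share of all genes): HSPA8, HSPD1, HSP90AB1 and CHORDC1, from 0.12 to 0.29.

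Matrix receptors and basement membrane genes were lower almost throughout. Of 17 integrin and laminin genes tested 15 fell and none rose, beside 32.3% and 20.0% of all genes, and their median was -0.36 (-0.32 and -0.31 under the other scalings). ITGA3, a laminin-binding integrin subunit, was at 4.15, 4.05 and 4.19 FPKM at 1 rpm and at 2.35, 2.27 and 2.31 at 30 rpm. The speeds did not overlap, and the change was -0.63 ± 0.05 (adjusted p = 1.52e-05, limma). ITGA2 (-0.51), ITGB5 (-0.48), ITGA6 (-0.47) and the laminin chain LAMC1 (-0.42) fell by less. The 2 not called were ITGB1 (-0.07), the shared beta subunit, and ITGA1 (-0.12).

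Among 24 extracellular matrix genes 18 fell and 1 rose, with a median of -0.27. The basement membrane collagens COL4A2 (-0.56), COL18A1 (-0.54) and COL4A1 (-0.50) fell most, COL4A2 from 15.9, 15.2 and 15.1 FPKM to 10.1, 9.95 and 10.4. The member that rose was ADAMTS1, a secreted metalloprotease that cuts proteoglycans, at 146, 144 and 148 FPKM at 1 rpm and 318 in each 30 rpm library. Its groups did not overlap, and its change of 1.12 ± 0.02 (adjusted p = 1.76e-08, limma) was past 2-fold. The secreted factors HTRA1, a serine protease (-0.99), and IGFBP4 (-0.96), which binds insulin-like growth factors, fell as well. IGFBP4 was at 10.7, 10.7 and 10.6 FPKM at 1 rpm and at 4.89, 5.23 and 4.88 at 30 rpm, without overlap.

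Cytoskeleton and epithelial genes were mostly lower. ACTA2, smooth muscle actin, was at 6.90, 6.49 and 6.78 FPKM at 1 rpm and at 2.39, 2.36 and 2.80 at 30 rpm, a change of -1.14 ± 0.06. Of 23 actin and SRF genes tested 17 fell and 2, VCL (0.09) and ACTG1 (0.21), rose, with a median of -0.16. KRT8 (-0.71) and KRT18 (-0.51), the keratin pair of simple epithelia, went from 60.5 to 36.4 FPKM and from 57.4 to 40.1 FPKM. SNAI2, a repressor of epithelial genes, was at 58.0, 54.3 and 53.5 FPKM at 1 rpm and at 94.2, 97.6 and 97.1 at 30 rpm, a rise of 0.79 ± 0.04. In that list of adhesion and epithelial genes 13 of 22 fell and 3 rose, with SNAI2, VIM (0.39) and ZEB1 (0.23) higher. RHOB, a small GTPase of endosomes and stress fibres, rose from 226, 225 and 225 FPKM to 402, 402 and 409. ANXA1, a membrane-binding protein, rose from 15.2, 15.2 and 14.8 FPKM to 31.1, 28.9 and 33.2, a ratio of 2.06. The speeds did not overlap in either gene.

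Notch and TGF-beta family genes changed in both directions. NRARP, a Notch target that limits Notch signalling, was at 241, 229 and 237 FPKM at 1 rpm and at 135, 131 and 134 at 30 rpm. The receptor NOTCH3 was at 6.22, 5.60 and 6.10 FPKM and at 2.75, 2.95 and 2.80. Both fell without overlap, by 0.82 and 0.86, and the target HES1 fell by 0.48. The targets HEY1 (0.26) and HEY2 (0.24) rose. Of 15 Notch genes tested 8 fell (53.3%) and 2 rose (13.3%), beside 32.3% and 20.0% of all genes. The median was -0.23 (-0.20 after median-ratio scaling and -0.13 after quantile normalization). INHBE, an activin subunit, was at 25.5, 24.7 and 23.9 FPKM at 1 rpm and at 9.24, 10.02 and 10.9 at 30 rpm, a change of -1.22 ± 0.05 (adjusted p = 2.28e-06, limma). INHBE was lower in both other formats, at 0.464 FPKM in 2D and 2.70 in AggreWell. The BMP antagonist NOG (-0.85) and TGFB1 (-0.52) fell, while ID1, an inhibitor of helix-loop-helix factors, rose from 21.7, 19.9 and 18.8 FPKM to 33.4, 33.7 and 36.3. ID1 (0.75), ID3 (0.49) and ID4 (0.46) led the 6 of 16 members that rose, beside 9 that fell; the balance turned under the other scalings, with 7 higher and 6 lower by median ratios and 7 and 5 by quantiles.

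**Figure D4:**
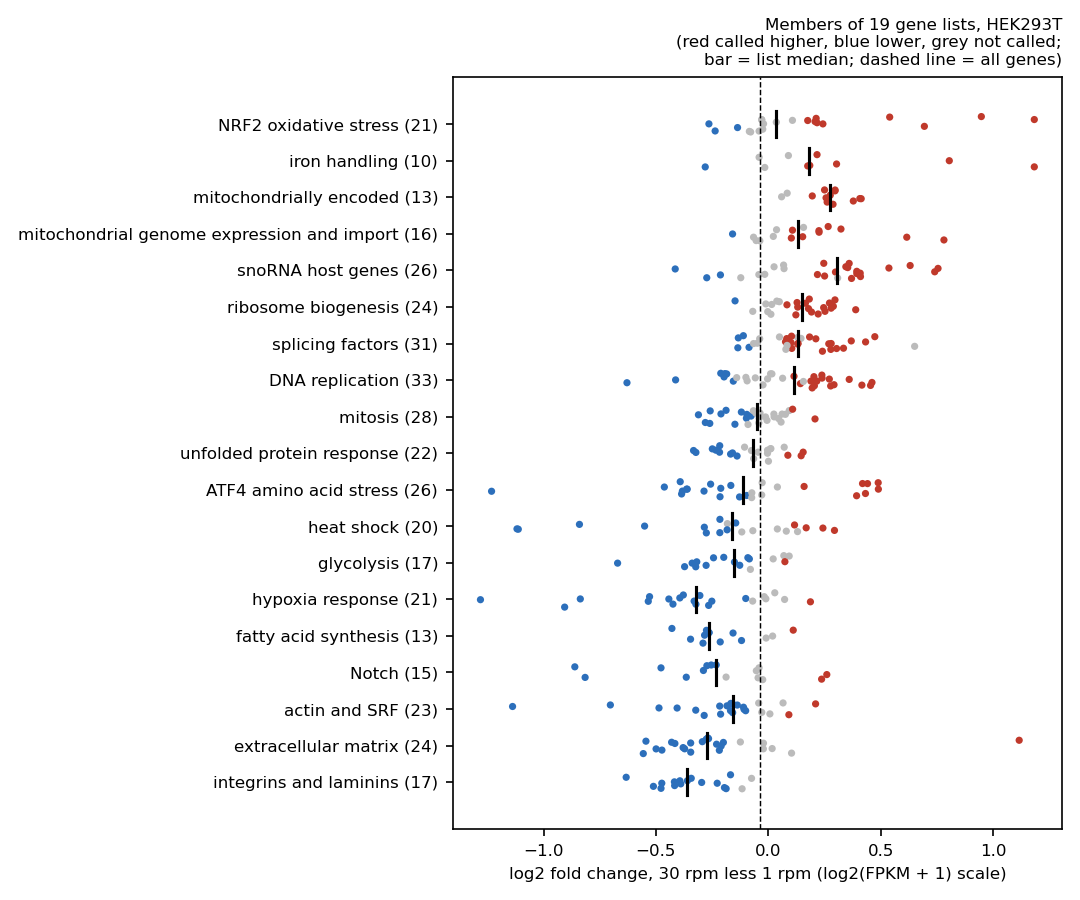
Log2 fold change of 30 rpm over 1 rpm (x axis) for each tested member of 19 gene lists (y axis, number tested in brackets); red points were called higher, blue lower and grey neither, the black bar is the list's median and the dashed line the median of all genes (-0.04). Medians run from -0.36 for integrins and laminins to 0.30 for small nucleolar RNA host genes.

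Nucleolar and RNA-processing genes were mostly higher. Host genes of small nucleolar RNAs, whose introns carry the guides of ribosomal RNA modification, had a median of 0.30, with 16 of 26 higher and 3 lower. SNHG17 was at 29.7, 32.5 and 29.3 FPKM at 1 rpm and at 54.6, 50.9 and 50.9 at 30 rpm, and SNHG3 at 31.8, 33.0 and 32.9 and at 57.0, 52.8 and 55.5. Both rose without overlap, by 0.75 and 0.74. The 3 hosts that fell, GAS5 (-0.27), ZFAS1 (-0.41) and SNHG32 (-0.21), were among the most abundant of the list, GAS5 at 801 and 662 FPKM. Ribosome biogenesis factors showed 16 of 24 higher and 1, UTP20, lower, led by GNL3 (0.39), with a median of 0.15. Cytosolic ribosomal proteins, which have many pseudogenes, were mixed, with 31 of 82 higher and 25 lower, 38 and 17 after median-ratio scaling and 28 and 34 after quantile normalization.

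Splicing factors rose in 18 of 31 cases and fell in 4, SRSF1, SRSF2, SRSF3 and SRSF5, with a median of 0.13. The kinase CLK4 (0.47), SRSF7 (0.43) and SRRM2 (0.37) were among the risers, and the highest change of a list member was 0.65. NEAT1, the RNA scaffold of paraspeckles, was at 17.2, 18.1 and 17.5 FPKM at 1 rpm and at 31.7, 30.4 and 31.1 at 30 rpm, a change of 0.79 ± 0.03. Of 360 zinc finger genes of the ZNF family, mostly repressors, 153 rose and 38 fell, with a median of 0.12. Median-ratio scaling gave 170 and 26 with a median of 0.16, and quantile normalization 203 and 20 with a median of 0.20. ZNF567 (0.63) and ZNF473 (0.60) were among the largest rises and ZNF853 (-0.96) the largest fall.

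DNA replication genes changed in both directions, with more of them higher. CDT1, which loads the replicative helicase, was at 133, 131 and 135 FPKM at 1 rpm and at 180, 181 and 187 at 30 rpm (0.45), and the primase subunit PRIM1 (0.46) and cyclin CCNE1 (0.42) rose by similar amounts. TYMS, thymidylate synthase, was at 87.5, 80.9 and 87.9 FPKM and at 54.9, 54.3 and 55.4 (-0.63), and RRM2 of ribonucleotide reductase fell by 0.41. The speeds did not overlap in any of these 5 genes. Among the 33 replication genes tested, rises numbered 16 (48.5%) and falls 7 (21.2%), with a median of 0.11. The shares of all genes were 20.0% and 32.3%. Mitosis genes showed 11 of 28 lower and 2 higher, 7 and 4 after median-ratio scaling and 8 and 3 after quantile normalization; CCNB2 fell by 0.31. CDKN1A, the inhibitor p21, fell from 22.9, 22.5 and 23.5 FPKM to 14.9, 13.8 and 15.1. SGK1, a kinase induced by glucocorticoid and osmotic stress, rose from 3.69, 3.87 and 3.80 FPKM to 7.46, 7.34 and 6.93.

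Some large changes are less certain. SMIM11 gave the highest change on the log2(FPKM + 1) scale, with 0.770, 0.834 and 0.819 FPKM at 1 rpm and 13.7, 1.10 and 6.26 at 30 rpm. Its change of 1.75 ± 0.55 (adjusted p = 0.0241, limma) rested on 2 of the 3 libraries, the gene has a near-identical annotated copy, and the call was lost without the FPKM filter (adjusted p = 0.116) and with robust variance shrinkage (0.129). Without any of the 3 libraries of 1 rpm the adjusted p was 0.0525 to 0.0545. BSG-AS1 fell from 14.8, 14.9 and 15.6 FPKM to 5.99, 7.34 and 5.49, but without strand its reads cannot be told apart from those of BSG. Further calls past 2-fold lower included CPNE2 (-1.05), G0S2 (-1.001), CHST14 (-1.001), LOC105378665 and LOC102724156.

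PANC-1 was rotated at the same speeds, and the change in HEK293T was tested against that in PANC-1 as an interaction over the 12 DRCC libraries. In PANC-1 7839 of 11272 genes tested were called (69.5%), 4158 higher (36.9%) and 3681 lower (32.7%). The change differed between the lines for 8348 of 13021 genes (64.1%), with HEK293T less PANC-1 above 0 for 3389 (26.0%) and below 0 for 4959 (38.1%); leaving out the mitochondrially encoded genes gave 4469 and 3879, and quantile normalization 4307 and 3936. Of 10449 genes tested in both lines, 706 were called higher in both and 866 lower in both. A further 914 were higher in HEK293T and lower in PANC-1, and 1459 the reverse.

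The hypoxia list was mostly lower in HEK293T and mostly higher in PANC-1. List counts in PANC-1 stand against the 36.9% higher and 32.7% lower of all genes tested there. Counts of line differences stand against 26.0% above 0 and 38.1% below 0. In PANC-1 14 of 19 members tested rose and 3 fell, with a median of 0.31, and the line difference was called below 0 for 16 of 21 and above 0 for 2. SLC2A1 rose in PANC-1 from 24.8 to 34.9 FPKM (0.48) where in HEK293T it fell by 0.84, a difference of -1.32 (adjusted p = 1.00e-09, limma). The unfolded protein response list was higher in PANC-1 in 18 of 22 cases and lower in 1, and the line difference was below 0 for 19 of 22 and above 0 for none. For ATF4 genes PANC-1 gave 20 of 25 higher and 1 lower, with a line difference below 0 for 19 of 26. Mitochondrially encoded genes were lower in PANC-1 for 11 of 13, and the line difference was above 0 for 12.

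HMOX1 rose in both lines, in PANC-1 from 85.8 to 236 FPKM (1.45), a change larger than in HEK293T by 0.27 on the log2(FPKM + 1) scale (line difference -0.27, adjusted p = 0.000171, limma). GCLM changed by 0.57 in PANC-1 and 0.54 in HEK293T, a difference of -0.03 that was not called. RHOB rose by 1.98 in PANC-1 and 0.84 in HEK293T, and ID1 by 1.51 and 0.75, with line differences of -1.13 and -0.76. OSGIN1 was called in HEK293T and not in PANC-1 (0.01), with a called difference of 0.94. ADAMTS1 was low in PANC-1, at 1.62 and 1.41 FPKM, and its difference of 1.24 was called.

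**Figure D5:**
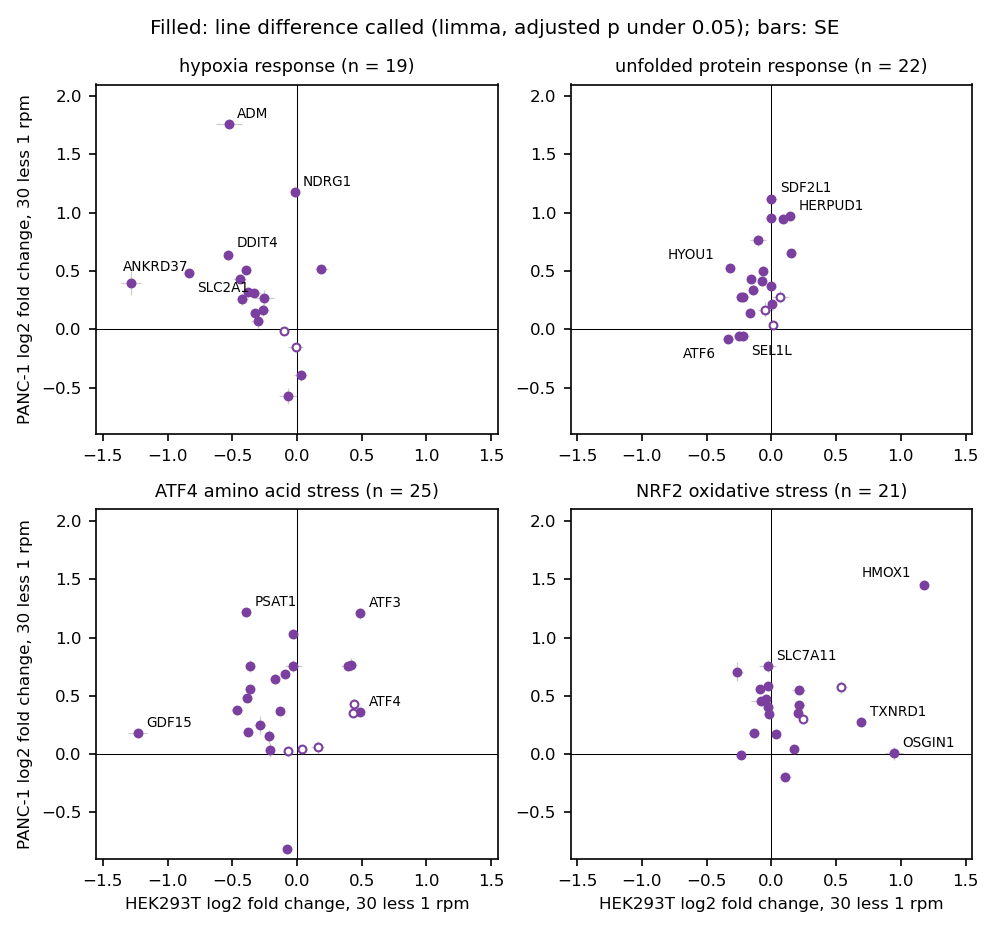
Log2 fold change of 30 rpm over 1 rpm in PANC-1 (y axis) against that in HEK293T (x axis) for members of 4 lists tested in both lines; bars are SEs, and filled points had a called line difference. Most hypoxia members lie left of 0 and above 0, as SLC2A1 (-0.84 and 0.48), and HMOX1 (1.18 and 1.45) lies above 0 on both axes.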

How the data were processed

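RNA was extracted with TRIzol and made into libraries with a VAHTS Universal V10 kit, per the labels' protocols; strand and poly(A) selection are not given in the sources used here. The authors deposited a table of FPKM values for 26450 genes in 24 libraries; the submitters' processing notes name fastp, HISAT2, HTSeq and R 3.2.0, without roles, and the mouse build mm10, although the symbols are human. In the FPKM table the authors' values fell on steps of 1 fragment: 99.996% of values above 0 came out whole within 0.01, for 26449 of 26450 genes, which gave the depths and the voom alternative. limma 3.58.1 in R 4.3.3 was fitted with a trend to log2(FPKM + 1) of the 6 libraries for genes at 1 FPKM or more in at least 3, and to the 12 DRCC libraries for the line difference. On simulated data with 100 genes changed at each size among 12184, it recovered 99 at 1.5-fold and 100 at 2-fold, with 7 false calls. For the line difference among 13021 genes it recovered 97 and 100, with 12 false calls. The changed genes were drawn from those above 5 FPKM, with independent normal noise. The simulation thus does not cover low genes, variation shared across a library, or changes under 1.5-fold, the size of most calls. Named genes were the 12 largest rises and falls among called protein-coding genes with a mean of at least 5 FPKM in the higher speed and no overlap between the speeds. The 3 largest non-coding changes each way were taken under the same conditions. Lack of overlap in genes picked this way was fixed by the choice. Up to 4 called members with the largest change per list were named too, as were the largest line differences (opposite calls and overall). Other list members were named after their values were seen, to complete a small count. The comparison, the 48 gene lists and these rules were chosen with earlier results of these data known. FPKM is relative to each library's total, so a rise in abundant transcripts lowers the rest. Alternatives were pseudocount 0.1, no filter, a mean of at least 5 FPKM, median-ratio and quantile scaling, the mitochondrially encoded genes left out, all HEK293T formats in the fit, robust shrinkage, a replicate block, voom on fragments and leaving out each library. Some genes that the naming rule picks are not reported here.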

Additional observations from a re-analysis of the deposited data

Results flagged for a closer look

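The 6 opposite movers with the largest line differences in the rule for named genes were called in opposite directions in HEK293T and PANC-1, and the interaction test over 12 libraries called each difference (limma, Benjamini-Hochberg). ND6, a complex I subunit of the mitochondrial genome, was at 83.7 and 112 FPKM at 1 and 30 rpm in HEK293T and at 118.9 and 2.42 FPKM in PANC-1, a difference of 5.55 (adjusted p = 5.56e-12). The HSP70 pair followed: HSPA1A differed by -3.14 (adjusted p = 7.82e-09) and HSPA1B by -2.97 (adjusted p = 8.55e-13), and HSPA1B was at 24.7 and 111.4 FPKM in PANC-1. NOG, a BMP antagonist, differed by -2.69 (adjusted p = 5.05e-10), from 2.66 to 1.02 FPKM in HEK293T and from 3.999 to 16.9 FPKM in PANC-1. NGFR, the low-affinity neurotrophin receptor, differed by -2.45 (adjusted p = 1.07e-12), from 39.3 to 26.2 FPKM in HEK293T and from 37.4 to 140.3 FPKM in PANC-1. ADM, the vasodilator peptide adrenomedullin, differed by -2.29 (adjusted p = 8.38e-09), from 3.995 to 2.47 FPKM in HEK293T and from 39.8 to 137.2 FPKM in PANC-1. For each gene the 3 libraries of a speed did not overlap with those of the other in either line. The genes were picked for calls in both lines, so this is no further support, and 60.5% of all genes tested in HEK293T did not overlap. As said above, ND6 reads are uncertain without strand, as is the division of reads between HSPA1A and HSPA1B.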

How the results depend on the processing

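Calls moved by at most 1.5 times under all 16 alternatives for genes higher and lower; leaving out 1 library in turn gave 1950 to 2443 higher and 3324 to 3817 lower. The number at least 2-fold higher was 11 with pseudocount 0.1, 5 with quantile normalization and 18 with voom on recovered fragments, and 2 to 3 when 1 library was left out. The number at least 2-fold lower was 85, 8 and 106 under those settings, 7 with a mean of at least 5 FPKM, and 11 to 17 when 1 library was left out; the cause was not tested. With each speed's mean taken off every gene, the deviations of same-numbered libraries correlated at -0.0904, -0.0033 and 0.0303. Those of differently numbered libraries correlated at -0.0536 to 0.0585. These values show no pairing by number, though so few libraries cannot exclude it. A replicate block gave 2298 higher and 3764 lower, with 3 and 13 past 2-fold. With the block the line difference was above 0 for 3362 genes and below 0 for 4929. Of the named results, 3153 values kept their side of the threshold, 38 fell short of it and none reversed; most of the 38 belong to SMIM11, ARRDC3, NFKB2 and HOXC5. Genes near 1 FPKM rest on few fragments, so small changes among them are not detectable at this depth.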

Other observations

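Clock, KLF and apoptosis genes changed in both directions. Among 14 clock genes 6 rose and 2 fell (median 0.04, and 0.07 and 0.13 after median-ratio scaling and quantile normalization); BHLHE40, a repressor of the clock that hypoxia also induces, went from 50.8 to 30.2 FPKM (-0.73), while the PAR-domain factor TEF (0.32), CRY2 (0.30) and PER1 (0.30) rose. KLF4 rose from 5.06, 5.23 and 5.05 FPKM to 9.28, 9.51 and 9.62 (0.78), and KLF6 from 16.7, 18.2 and 17.6 FPKM to 29.5, 30.1 and 30.0 (0.74). Of 13 KLF factors 4 rose (30.8%) and 6 fell (46.2%), and 4 rose and 4 fell under either other scaling. Among 14 BCL2 family genes 6 rose (42.9%) and 5 fell (35.7%), beside 20.0% and 32.3% of all genes. PMAIP1 (0.47) and BCL2L11 (0.34) were among the risers, and BID (-0.68), BCL2 (-0.41) and BAX (-0.34) among the fallers. In the list of metallothioneins and zinc genes 4 of 6 tested members fell (66.7%) and 1 rose (16.7%), beside 32.3% and 20.0% of all genes. The 3 metallothioneins among the 6, MT1X (-0.54), MT1F (-0.42) and MT2A (-0.33), were lower.

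Genes tied to the origin of the line were more often lower, while HOX genes changed in both directions. In the renal progenitor and neural list 12 of 23 fell and 1, HOXA9 (0.28), rose, with a median of -0.13 (-0.11 and -0.06 under the other scalings); the neurofilament gene INA fell by 0.86 from 2.29 to 0.817 FPKM. In the HOX clusters 6 of 34 genes rose and 8 fell, but 10 rose and 8 fell after median-ratio scaling and 9 and 7 after quantile normalization, with HOXA6 (0.69) and HOXA13 (-0.52) at the ends although they lie in the same cluster.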
